A study of Schizosaccharomyces pombe with 4 samples.

Results

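Annotated non-coding RNAs that overlap no protein-coding gene were compared between a histone chaperone mutant and wild type in the fission yeast Schizosaccharomyces pombe. The series names intragenic and antisense transcription as its subject, and these loci lie outside coding genes on both strands. A row of the expression table was taken when its biotype was ncRNA and its start and end overlapped no protein-coding row on either strand. Rows in the 3 centromeres, or under 100 kb from the ends of chromosomes I and II, were left out. This gave 382 of the 1551 ncRNA rows and of the 7023 rows in all. Of the 442 ncRNA rows that overlap no coding row anywhere, 26 lay in a centromere and 34 near those ends.

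The strain spt6-1 carries a mutant allele of spt6, the gene of a histone chaperone that travels with RNA polymerase II. WT is the wild-type strain. Both were prototrophic, grew in rich medium at 30 °C and spent 2 h at 37 °C before harvest, so the heat shift is common to both groups. Each group has 2 libraries of polyadenylated RNA, made so that the strand of each read is kept. No label gives the 2 libraries of a strain as separate cultures, so a p-value here covers just the spread seen between libraries, and fewer cells making an RNA cannot be told apart from less RNA per cell.

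Spt6 helps to put histones back behind the elongating polymerase, and in yeasts its loss is known to expose start sites that chromatin normally covers. Many fission yeast non-coding RNAs start beside the promoter of a coding gene and run away from it, and many are removed quickly by the nuclear exosome. A few have known roles: sme2 makes meiRNA, which entry into meiosis needs, mrp1 makes the RNA of the RNase MRP enzyme and srp7 that of the signal recognition particle.

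The first sequence shown is a stretch of sme2, because it is rich in the element through which the RNA-binding protein Mmi1 recognises meiotic RNAs. The other 3 are the windows from 250 bases before to 50 bases after the annotated start of RNAs to which the results below return. All are RefSeq sequence of the nuclear chromosomes, whose lengths and coding sequences match the ASM294v2 coordinates of the table, and all read 5′ to 3′ on the RNA's own strand. In sme2 (chrII:339347-339646, minus strand) the capitals mark TNAAAC, the core of the Mmi1 element. In the windows of SPNCRNA.757 (chrI:1725731-1726030, minus strand), SPNCRNA.472 (chrIII:715736-716035, plus strand) and SPNCRNA.1624 (chrII:3620328-3620627, plus strand) they mark TATAAA, the TATA box, and GAANNTTC, the core of a heat shock element, on either strand.
sme2: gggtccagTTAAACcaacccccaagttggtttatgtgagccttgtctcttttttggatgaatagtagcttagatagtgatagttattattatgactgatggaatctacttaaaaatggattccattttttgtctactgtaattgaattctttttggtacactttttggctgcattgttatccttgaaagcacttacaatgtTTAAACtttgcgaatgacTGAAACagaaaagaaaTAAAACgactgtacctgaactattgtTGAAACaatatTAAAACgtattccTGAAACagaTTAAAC
SPNCRNA.757: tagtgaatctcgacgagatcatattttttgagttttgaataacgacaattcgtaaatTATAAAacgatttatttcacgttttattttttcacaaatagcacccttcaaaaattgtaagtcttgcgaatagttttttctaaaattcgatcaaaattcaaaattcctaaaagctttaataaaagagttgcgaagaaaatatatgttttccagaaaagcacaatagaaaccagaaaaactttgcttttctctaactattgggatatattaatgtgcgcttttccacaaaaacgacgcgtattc
SPNCRNA.472: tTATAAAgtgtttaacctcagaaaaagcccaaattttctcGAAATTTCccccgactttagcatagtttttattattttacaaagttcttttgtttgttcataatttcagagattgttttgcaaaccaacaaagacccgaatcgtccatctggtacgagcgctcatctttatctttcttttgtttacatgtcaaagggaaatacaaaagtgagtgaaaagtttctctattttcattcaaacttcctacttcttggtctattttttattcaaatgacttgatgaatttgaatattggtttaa
SPNCRNA.1624: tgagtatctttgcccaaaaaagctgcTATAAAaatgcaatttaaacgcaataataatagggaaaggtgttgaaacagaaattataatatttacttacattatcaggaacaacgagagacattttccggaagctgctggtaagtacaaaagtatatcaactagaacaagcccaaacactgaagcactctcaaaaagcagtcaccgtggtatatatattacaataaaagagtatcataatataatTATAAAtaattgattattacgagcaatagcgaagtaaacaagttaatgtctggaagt

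The stretch of sme2 held 8 matches to TNAAAC, which is all the matches of the gene, and was placed to hold the most. Among 83810 consecutive windows of 300 bases on both strands of the 3 chromosomes, 2 held as many. Those windows stood at fixed places and were not moved to hold the most, so the comparison can make such stretches look rarer. Per kilobase sme2 ranked 2 of the 382 RNAs, with 12.0 matches per kilobase, behind SPNCRNA.129, an RNA of 83 bases with 1 match. The median was 1.90 matches per kilobase over all 382, 1.85 over those called higher on the sense strand and 2.05 over those tested without a call, so the medians of these groups lay close together.

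Over all 382 RNAs the start windows likewise held common motifs at close to the background rate. TATAAA stood in 49.0% of the windows of the 382 RNAs, against 49.0% of all windows of the table, counting both strands. GAANNTTC stood in 12.3% of the RNAs' windows, against 11.0% of all windows. The HomolD box of ribosomal protein promoters, CAGTCACA, stood in 2.36% of the RNAs' windows and 2.38% of all windows, and the Atf1 core TGACGT in 8.12% and 6.20%. Among the 103 RNAs called higher on the sense strand, TATAAA stood in 54.4% of the windows, GAANNTTC in 11.7% and TGACGT in 8.74%. CAGTCACA stood in 6 of those 103 windows, or 5.83%, above its 2.38% of all windows. The motifs shown can overlap each other, and the windows of SPNCRNA.757 and SPNCRNA.1624 reach into the coding gene on their upstream side. The TATAAA marked 193 bases before the start of SPNCRNA.757 lies inside that gene. So does the one 224 bases before the start of SPNCRNA.1624, while its other lies 7 bases before the start.

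The 382 RNAs were short, rich in A and T, and close to genes. Their length ran from 56 to 5123 bases with a median of 603, against a median of 1252 bases for the ncRNAs that lie opposite a coding row. Their median GC content was 32.5%, against 36.1% for the 3 chromosomes. The nearest coding row lay a median of 193 bp away, and 188 RNAs were at least 200 bp from any. Chromosome I held 169 of them, chromosome II 140 and chromosome III 73. All but 1 have a single exon: SPNCRNA.159 is the exception.

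Most started back to back with a gene. For 379 RNAs with a coding row on both sides, the nearest upstream coding row was on the opposite strand in 305, or 80.5%, against 52.8% of 4996 protein-coding rows counted the same way. The arrangement of an opposite upstream and a same-strand downstream gene made up 58.6% of the RNAs and 31.8% of the coding rows. An RNA that follows a gene on its own strand and then meets an oncoming gene made up 4.22% of the RNAs and 18.6% of the coding rows. The rule leaves out every ncRNA that overlaps a coding row, while the coding rows were not chosen this way. For a coding row, an overlapping coding neighbour was passed over for the next one. How much of these differences comes from the selection was not tested. The median distance to the opposite upstream gene was 350 bp.

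**Figure D1:**
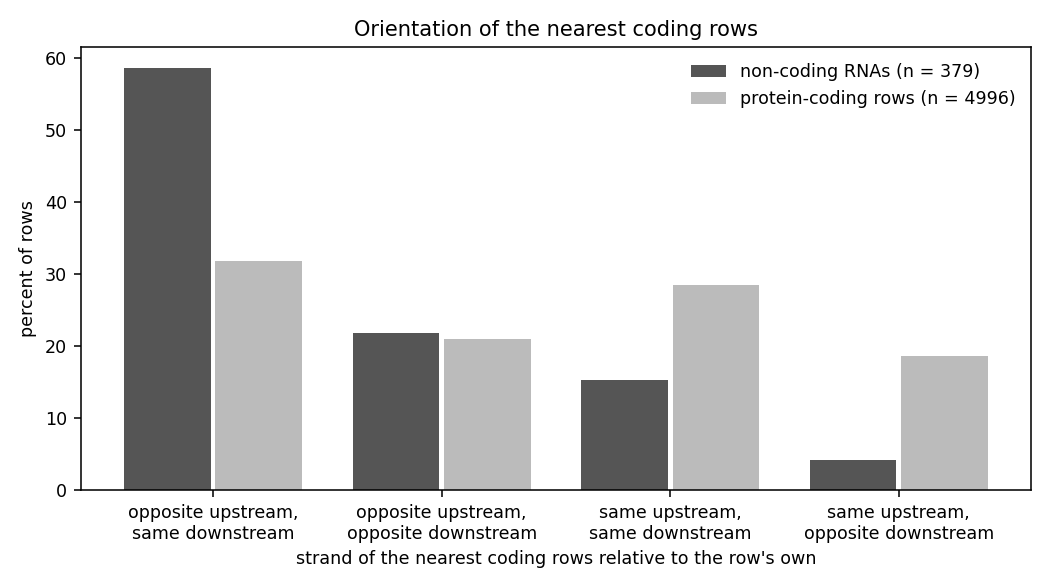
Orientation of the nearest protein-coding row on each side of 379 non-coding RNAs and of 4996 protein-coding rows, as a percent of rows. The arrangement opposite upstream and same downstream takes 58.6% of the non-coding RNAs and 31.8% of the coding rows. The non-coding RNAs were chosen to overlap no coding row, and the coding rows were not.

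Rows of the table can share reads. The 382 RNAs make up 348 separate loci once rows that overlap on the same strand are joined, 190 overlap some other row on either strand, and 11 have a near-identical copy over 50% or more of their length elsewhere in the genome. How reads with several positions were placed is not given in the sources used here, so the values of those 11 are uncertain. The rule leaves out the ends of chromosomes I and II only, so 13 of the RNAs lie within 100 kb of an end of chromosome III, and 4 more neighbour the mating-type genes.

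Depth was 39693042 and 16894607 recovered sense reads in spt6-1 and 36520471 and 17093322 in WT. The RPKM denominator of spt6-1 replicate 1 was 70.5% of its recovered sense reads, against 98.3% to 102% in the other libraries. Its RPKM therefore stand higher for a given share of its own recovered reads. A single read per kilobase is worth 0.0278 to 0.0581 RPKM. Over the RNAs tested, log2 sense values correlated with r = 0.927 between the spt6-1 libraries, 0.930 between the WT libraries and 0.687 to 0.741 between the strains, a description over 254 loci. As a check of the labels, spt6 itself had 12.7 and 8.32 sense RPKM in spt6-1, against 65.5 and 61.6 in WT, and its antisense RPKM were 50.5 and 25.5 in spt6-1, against 0.0631 and 0.0263 in WT.

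Most of the RNAs were scarce in both strains. The median sense level was 2.35 and 2.46 RPKM in spt6-1, against 1.29 and 1.30 RPKM in WT, and the median antisense level 1.05 and 0.961 RPKM in spt6-1, against 0.480 and 0.458 RPKM in WT. Protein-coding rows had median sense levels of 28.6 and 28.1 RPKM in spt6-1 and 27.0 and 28.2 RPKM in WT. Both spt6-1 libraries stood above both WT libraries in these medians on each strand of the RNAs. The sense strand exceeded the antisense strand in 63.7% and 64.1% of the RNAs at 1 RPKM or more on either strand in spt6-1, and in 66.8% and 65.7% in WT.

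More of the RNAs rose than fell on the sense strand, except under quantile normalization. Of 382, 254 reached 1 RPKM in at least 2 libraries and were tested, and 103 of these were higher and 8 lower in spt6-1 (limma on log2(RPKM + 0.5), Benjamini-Hochberg over all rows tested, adjusted p under 0.05). Over all rows tested, 21.8% were higher and 6.67% lower. The median log2 change was 0.71 over the 254 and 0.16 over all rows. For ncRNAs lying opposite a coding row it was 1.16, with 487 of 744 higher and 7 lower, and for ncRNAs overlapping a coding row on the same strand 0.70, with 124 of 268 higher and 4 lower. The share of higher calls among the non-overlapping RNAs was thus above that of all rows and below that of the ncRNAs opposite genes. Quantile normalization within the strand turned the split to 40 higher and 46 lower, with medians of -0.12 for these RNAs and -0.13 for all rows. Over all 6547 rows tested it gave 801 higher and 998 lower. Rescaling to recovered reads gave 79 higher and 12 lower, with medians of 0.52 for these RNAs and -0.04 for all rows. Over all 6542 rows tested there it gave 1079 higher and 576 lower. Voom on recovered reads gave 79 higher and 10 lower, with medians of 0.64 and -0.03, and 1159 higher and 814 lower over all rows.

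The filter matters for these counts. The 193 RNAs past it in both WT libraries included 69 higher and all 8 lower calls, with a median log2 change of 0.54. Another 54 passed through the spt6-1 libraries and not both WT libraries, which fixes their direction, and 34 of those were called higher. A further 7 passed through 1 library of each strain, with no call, and 128 were not tested. Over all 382 with no filter, both spt6-1 libraries were above both WT libraries for 206 and below for 38, and 21 were at 0 in all 4. Over all rows those shares were 41.0% above and 23.9% below. The 103 higher calls came from 92 loci. Their fold changes ran from 1.58 to 38.4 with a median of 2.68, and 25 were at least 4-fold.

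**Figure D2:**
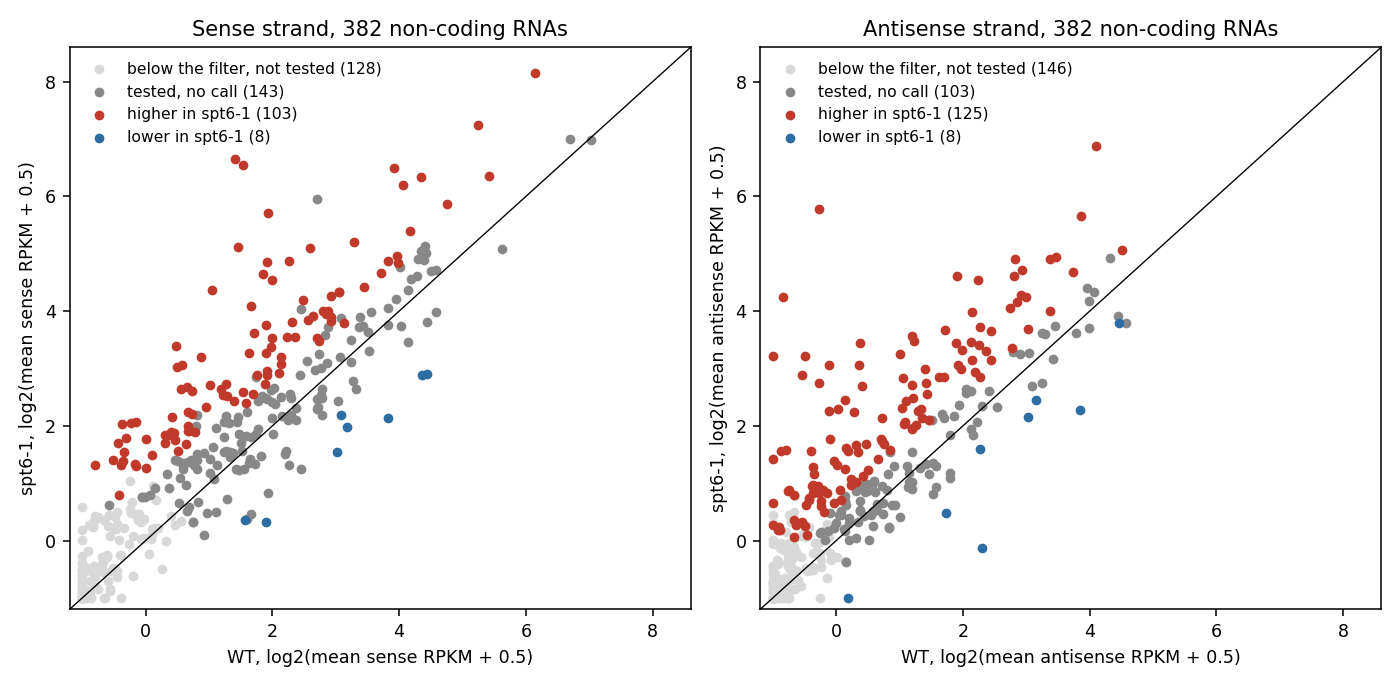
Mean level of each of the 382 non-coding RNAs in spt6-1 (vertical) against WT (horizontal), as log2(mean RPKM + 0.5), for the sense strand on the left and the antisense strand on the right, with the line of equal levels. On the sense strand 103 points are called higher and 8 lower, and on the antisense strand 125 and 8; quantile normalization gave 40 and 46 on the sense strand and 23 and 136 on the antisense strand.

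The largest sense rise away from a repeated sequence was that of SPNCRNA.757, on the minus strand of chrI:1725052-1725780. It had 91.2 and 96.0 RPKM in spt6-1, against 1.79 and 3.03 RPKM in WT. Both spt6-1 libraries were far above both WT libraries, and the fold change was 33.0 (log2 5.05, SE 0.24, limma adjusted p = 6.7e-05). It lies between ssc1, which codes for a mitochondrial Hsp70 and starts 77 bp away in the opposite direction, and klp2, a kinesin gene that converges on it and ends 149 bp away. Sense RNA of ssc1 stood at 1499 and 852 RPKM in spt6-1 and 1425 and 904 RPKM in WT, so the groups overlapped. The strand of SPNCRNA.757 continues as the antisense strand of klp2, where RNA stood at 30.4 and 30.2 RPKM in spt6-1 and 0.510 and 0.600 RPKM in WT (log2 change 4.87, SE 0.19, limma). The opposite strand of SPNCRNA.757 itself went the other way, with 5.64 and 3.02 RPKM in spt6-1 and 21.3 and 6.46 RPKM in WT (limma adjusted p = 0.042). That fall did not pass the threshold without WT replicate 1, with an adjusted p of 0.17, without spt6-1 replicate 2 (0.094), with no filter (0.064) or with a pseudocount of 1 (0.054).

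sme2, the meiRNA gene whose sequence is shown above, had 44.1 and 59.1 RPKM in spt6-1, against 3.13 and 3.49 RPKM in WT. Both spt6-1 libraries stood above both WT libraries, 13.5-fold by the fit (log2 3.76, SE 0.21, limma adjusted p = 8.0e-05). Its antisense strand was close to empty, at 0.321 and 0.260 RPKM in spt6-1 and 0.0417 and 0 RPKM in WT, and was not tested. The genes on both sides read the same way: the upstream mrpl8, for a mitochondrial ribosomal protein, did not pass the test on the sense strand, with 23.8 and 26.8 RPKM in spt6-1 and 39.8 and 34.5 RPKM in WT.

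SPNCRNA.472 (chrIII:715986-717312, plus strand) rose on both strands. It lies between bfr1, the gene of a drug efflux transporter that starts 550 bp away on the opposite strand, and wee1, the gene of a mitotic inhibitor kinase 4475 bp downstream. Its sense level was 33.2 and 35.2 RPKM in spt6-1, against 2.60 and 1.88 RPKM in WT. Its antisense level was 9.21 and 6.41 RPKM in spt6-1, against 1.07 and 0.482 RPKM in WT. The groups were apart on each strand, by 12.8-fold sense and 6.60-fold antisense in limma's fit. Neither bfr1 nor wee1 passed the test on the sense strand, with 58.4 and 49.7 RPKM in spt6-1 and 40.9 and 41.2 RPKM in WT for bfr1.

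The other RNAs among the 10 largest rises were small or shared reads with a neighbour. SPNCRNA.942 and SPNCRNA.510 overlap on the same strand and are 1 locus, 84 bp from the divergent spindle pole gene ppc89. SPNCRNA.510 had 88.6 and 90.2 RPKM in spt6-1, against 15.6 and 13.7 RPKM in WT, a 5.96-fold rise. SPNCRNA.358, 171 bp from the divergent ATP sulfurylase gene sua1, had 27.0 and 22.0 RPKM in spt6-1, against 3.05 and 3.19 RPKM in WT. It lies wholly inside the longer ncRNA SPNCRNA.1448 of the same strand, so the 2 rows cannot be told apart there. SPNCRNA.515, of 105 bases, had 18.0 and 39.1 RPKM in spt6-1, against 3.18 and 3.32 RPKM in WT, and shares most of its length with SPNCRNA.1651. SPNCRNA.90 rested on few reads, 44 and 23 in spt6-1 and 1 and 4 in WT. In these 5 RNAs both spt6-1 libraries stood above both WT libraries.

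A pair of the 10 lie in repeated sequence. SPNCRNA.1299 (chrIII:2448764-2449506), near the right end of chromosome III, had 94.9 and 104 sense RPKM in spt6-1, against 2.66 and 1.64 in WT. On its antisense strand it had 48.8 and 60.3 RPKM in spt6-1, against 0.337 and 0.313 in WT, and passed the antisense filter through spt6-1 alone. SPNCRNA.389 (chrII:2129803-2130589), beside the mating-type genes, had 19.9 and 20.7 sense RPKM in spt6-1, against 1.49 and 1.63 in WT. Both have a copy of their full length elsewhere, so their reads may belong to more than 1 place. Leaving out the RNAs of the chromosome III ends and the mating-type genes left 97 higher and 6 lower calls among 240 tested on the sense strand.

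The 8 falls on the sense strand came from 6 loci, and every one of them overlaps another ncRNA row. SPNCRNA.1380 and SPNCRNA.322 are almost the same stretch of chrII:674049-676227. SPNCRNA.1380 had 6.97 and 6.78 RPKM in spt6-1, against 14.1 and 26.1 RPKM in WT, and its fit gave a log2 change of -1.42 (SE 0.29, limma adjusted p = 0.013). The divergent gene SPBC947.04, 206 bp upstream, fell as well, with 19.4 and 18.8 RPKM in spt6-1 and 65.9 and 61.1 RPKM in WT. SPNCRNA.523, inside SPNCRNA.1293 on the same strand near the right end of chromosome III, had 3.33 and 4.48 RPKM in spt6-1, against 13.4 and 13.8 RPKM in WT.

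The remaining falls were smaller or rested on fewer reads. SPNCRNA.113 had 3.26 and 3.64 RPKM in spt6-1, against 6.61 and 10.5 in WT, and SPNCRNA.780 had 4.10 and 4.07 in spt6-1, against 7.43 and 8.58 in WT. SPNCRNA.277 had 19 and 7 reads in spt6-1, against 60 and 30 in WT. SPNCRNA.78 had 3 and 1 reads in spt6-1, against 9 and 8 in WT. In each the spt6-1 libraries were the lower, without overlap. Without spt6-1 replicate 2 the adjusted p was 0.12 for SPNCRNA.277 and 0.083 for SPNCRNA.78, which voom did not call either (0.083). The call of SPNCRNA.113 was lost without WT replicate 2 (0.084) or spt6-1 replicate 1 (0.057), and that of SPNCRNA.780 with any library but WT replicate 1 left out (0.060 to 0.088).

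**Figure D3:**
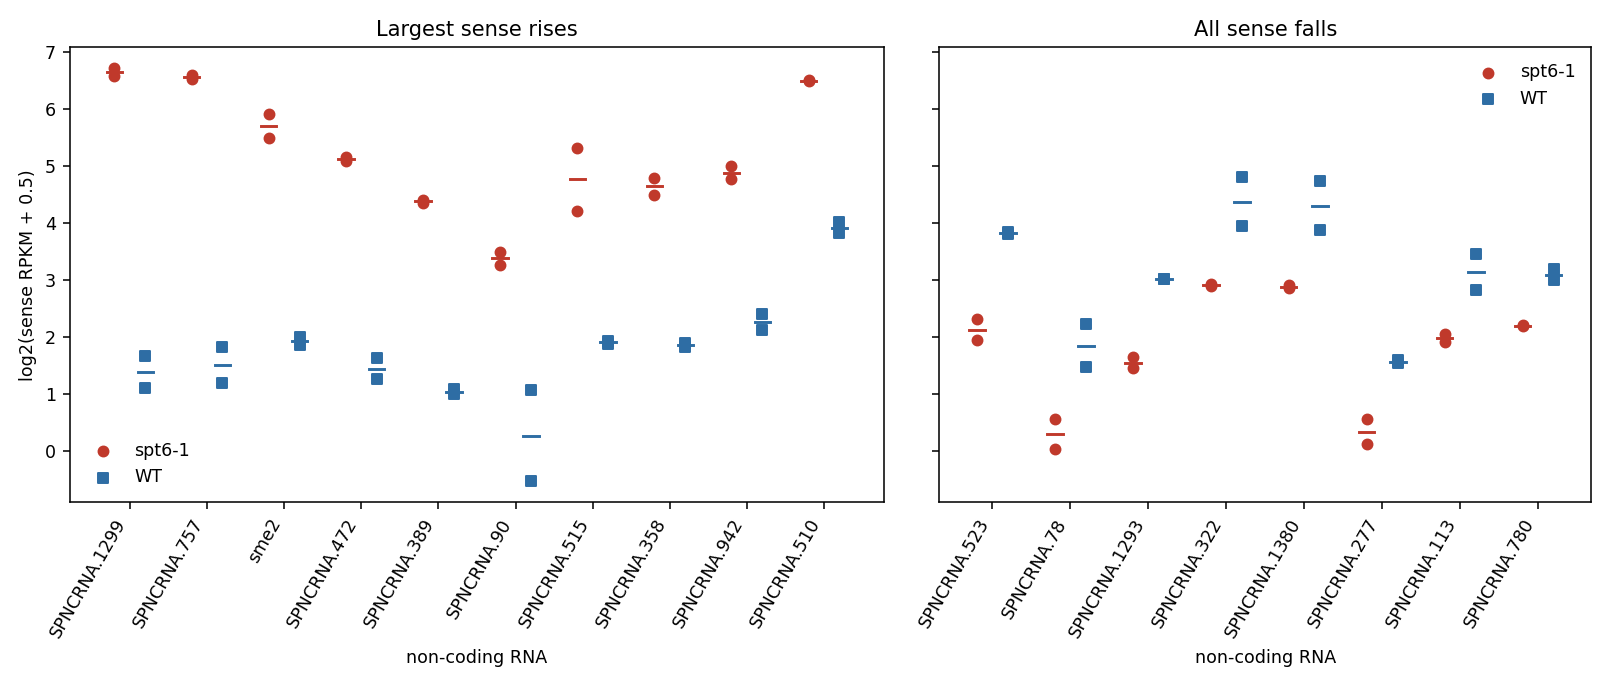
Sense level of the 10 RNAs with the largest rise and of all 8 with a fall, as log2(sense RPKM + 0.5). Each symbol is a library, circles for spt6-1 on the left of each pair and squares for WT on the right, with a bar at the mean of each strain's 2 libraries. SPNCRNA.757, for example, has 91.2 and 96.0 RPKM in spt6-1 and 1.79 and 3.03 RPKM in WT.

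On the antisense strand, too, more of these RNAs rose than fell in the limma fit, while quantile normalization and voom turned that direction. Of 236 RNAs at 0.5 antisense RPKM in at least 2 libraries, 125 were higher and 8 lower in spt6-1, with a median log2 change of 0.68. Over all rows tested 70.3% were higher and 3.89% lower, with a median of 1.31, and 3820 of 4728 protein-coding rows were higher. Their share of 53.0% higher therefore lies below the background, and for ncRNAs opposite a coding row, whose antisense is the coding strand, 153 of 762 were higher and 138 lower. Quantile normalization within the strand gave 23 higher and 136 lower, and voom with the antisense strand's own TMM factors 29 higher and 90 lower. Those scalings also took the median of all rows to -0.09 and 0.37. Of all 6141 rows tested, quantile normalization called 1566 higher and 1792 lower, and voom 2614 higher and 1957 lower. With the sense strand's library sizes, a choice made after seeing the data, voom gave 96 higher and 13 lower.

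Of the RNAs past the antisense filter in both WT libraries, 75 of 174 were higher and 8 lower. Another 58 passed through spt6-1 and not both WT libraries, which fixes their direction, and 50 of those were called higher. A further 4 passed through 1 library of each strain, and 146 were not tested. Without the filter, both spt6-1 libraries lay above both WT libraries for 187 of 382 and below for 29, with 26 at 0 throughout, against 73.7% above and 7.42% below over all rows. The higher calls came from 117 loci, and their fold changes had a median of 2.35, with 22 at least 4-fold.

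The largest antisense rise in unique sequence among the RNAs named here was at SPNCRNA.426 and SPNCRNA.1624, overlapping rows between rps1801, a ribosomal protein gene that starts 108 bp upstream in the opposite direction, and mbx2, a MADS box factor gene 165 bp downstream. The antisense strand of SPNCRNA.426 had 10.0 and 7.57 RPKM in spt6-1, against 0.297 and 0.124 RPKM in WT, 13.1-fold higher (log2 3.71, SE 0.25, limma adjusted p = 2.6e-05). Its sense strand had 25.6 and 26.2 RPKM in spt6-1 and 23.8 and 23.0 RPKM in WT, with no call. The same strand runs on as the antisense strand of mbx2, which had 31.2 and 21.4 RPKM in spt6-1 and 13.0 and 8.68 RPKM in WT. SPNCRNA.1097 (chrIII:39627-41424), which has no copy, followed a like pattern, with 7.61 and 8.15 antisense RPKM in spt6-1 and 0.418 and 0.420 in WT, and no call on the sense strand. It also passed the antisense filter through spt6-1 alone.

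SPNCRNA.1094 and SPNCRNA.1095, near the left end of chromosome III, have full copies elsewhere. The antisense strand of SPNCRNA.1095 had 6.05 and 11.6 RPKM in spt6-1 and was at 0 in both WT libraries, which is at least 35.5-fold higher against a floor of 3 reads per library. SPNCRNA.1094 had 186 and 33 antisense reads in spt6-1, against 1 and 0 in WT. Each passed the antisense filter through spt6-1 alone, which fixes its direction. On the sense strand these were among the 4 most abundant RNAs in WT. SPNCRNA.1095 had 90.2 and 163 sense RPKM in spt6-1 and 219 and 41.1 RPKM in WT, so the WT libraries spanned both spt6-1 libraries. The other 2 of the 4 were SPNCRNA.863, 64.8% of which has a near-identical copy, with 135 and 120 RPKM in spt6-1 and 95.1 and 111 RPKM in WT, and SPNCRNA.1527, with 48.1 and 19.0 RPKM in spt6-1 and 40.9 and 56.6 RPKM in WT. Neither passed the sense test.

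Among the 8 antisense falls, SPNCRNA.385 had the largest, with 0.620 and 0.201 RPKM in spt6-1, against 2.71 and 6.16 RPKM in WT. It lies 612 bp before frg1 on the same strand. The antisense fall of SPNCRNA.1088, with 1.13 and 0.674 RPKM in spt6-1 and 2.73 and 2.90 RPKM in WT, is largely the sense fall of SPNCRNA.277 counted from the other side, since these rows overlap on opposite strands. The antisense strand of prl21 had no read in spt6-1 and 6 and 3 reads in WT.

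The strands of a locus moved with little relation to each other. Over the 162 RNAs tested on both strands, the Spearman correlation of the log2 changes was 0.07 and Pearson's 0.17, a description over loci that share the same 4 libraries. Among all 382, 35 were called higher on both strands, 2 were higher sense and lower antisense, 2 were lower sense and higher antisense, and 54 were tested on neither. The ratio of antisense to sense RNA was higher in spt6-1 for 35 of the 162 and lower for 28, with a median log2 change of -0.07. Over all rows the ratio was higher for 58.0% and lower for 14.0%, with a median of 1.20, so the higher share of these RNAs was under the background and the lower share close to it. Quantile normalization gave 18 higher and 71 lower, against 1610 higher and 1443 lower of 5933 over all rows.

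The largest ratio falls were those of SPNCRNA.757 (log2 -6.45), SPNCRNA.1540 (-3.01) and prl26 (-2.82). SPNCRNA.1540 follows the small heat shock protein gene hsp16 on the same strand, 38 bp beyond its end. Its sense level was 3.02 and 4.32 RPKM in spt6-1, against 0.337 and 0.469 RPKM in WT, with no call under quantile normalization (adjusted p = 0.083). It passed the sense filter through spt6-1 alone. hsp16 had 13153 and 7371 RPKM in spt6-1, against 1888 and 1983 RPKM in WT, and whether its RNA runs into SPNCRNA.1540 was not tested. The largest ratio rises were those of SPNCRNA.1095 (log2 3.80), SPNCRNA.426 (3.56) and SPNCRNA.1624 (3.22). That of SPNCRNA.1095, whose antisense strand is at 0 in WT, depends on the pseudocount, with 6.05 at a pseudocount of 0.1 and 2.89 at 1. Leaving out WT replicate 1 gave 2.61, below SPNCRNA.426, and leaving out WT replicate 2 gave 5.003. For SPNCRNA.757 the ratio change was -5.32 with WT replicate 1 left out and -7.59 with WT replicate 2 left out. That of prl26 ran from -3.64 to -2.003 with 1 library left out, and had no call without spt6-1 replicate 1 (adjusted p = 0.057).

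**Figure D4:**
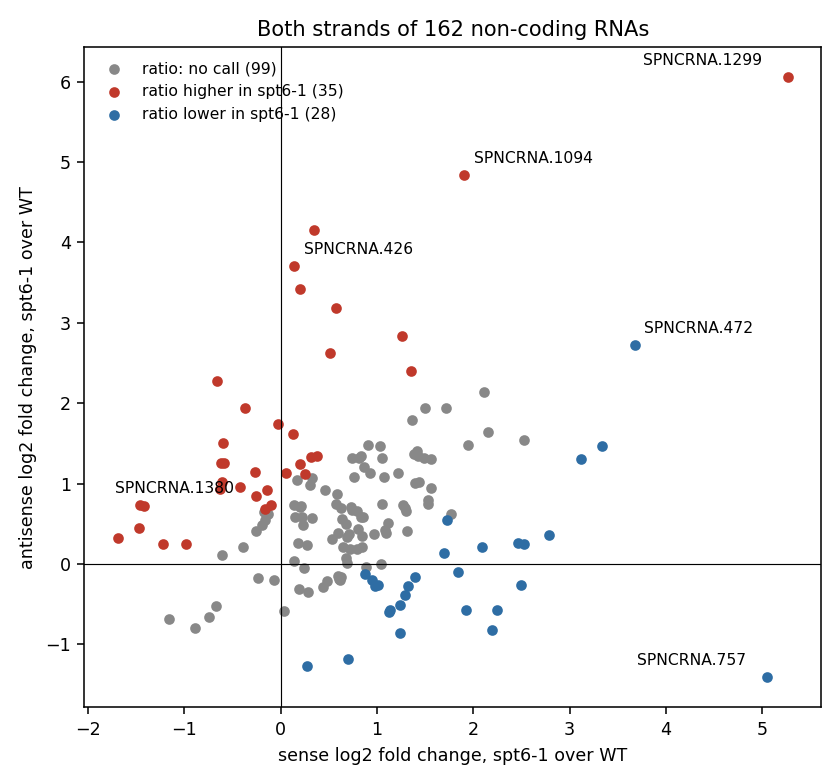
Log2 fold change of spt6-1 over WT on the antisense strand (vertical) against the sense strand (horizontal) for the 162 non-coding RNAs tested on both, coloured by the call on the antisense to sense ratio. SPNCRNA.757 stands alone at the lower right, with a sense change of 5.05 and an antisense change of -1.41; 35 ratios were called higher and 28 lower, and 18 and 71 under quantile normalization.

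RNAs with known roles or names are 26 of the 382. Of the 5 meiotic RNAs among them, sme2 and omt3 rose on the sense strand. omt3 had 2.78 and 1.45 RPKM in spt6-1, against 0.445 and 0.116 RPKM in WT, with no call under quantile normalization (adjusted p = 0.58). Without WT replicate 2 its log2 change was 1.42, against 1.73 with all libraries. It passed the sense filter through spt6-1 alone, which fixes its direction. meu3 had 2.35 and 5.76 RPKM in spt6-1 and 0.861 and 1.64 RPKM in WT, meu19 overlapped between strains, and meu11 was not tested. On the whole meiotic list of 8, which adds tos1, tos2 and tos3 from opposite coding rows, 3 of 7 tested were higher and none was lower in the limma fit, where 5 were higher and 0 lower at an unadjusted p under 0.05; voom called 3 higher and 0 lower, and without spt6-1 replicate 2 limma called 1 higher, without the other libraries in turn 2 or 3. The 3 of 7 compare with 21.8% higher over all rows, 40.6% of the tested RNAs of the set and 65.5% of the ncRNAs opposite genes, so the list lies near the share of the set.

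Among stable structural RNAs, whose mature forms carry no long poly(A) tail, mrp1 rose. It had 38.6 and 29.5 RPKM in spt6-1, against 4.54 and 6.56 RPKM in WT, a 5.74-fold change (limma adjusted p = 5.8e-04). It shares reads with SPNCRNA.727, a row on its strand. srp7 had 114 RPKM in spt6-1 replicate 1 and 9.17 in replicate 2, against 7.20 and 4.78 RPKM in WT, with an adjusted p of 0.13, so 1 library carried most of its difference. Outside the set, rrk1, the RNA of RNase P, rose, with means of 8.68 RPKM in spt6-1 and 3.86 RPKM in WT and no call under quantile normalization (adjusted p = 0.23) or without spt6-1 replicate 1 (0.056). ter1, the telomerase RNA, did not pass, with means of 4.61 RPKM in spt6-1 and 5.49 RPKM in WT, but was called lower under quantile normalization (log2 -1.09, adjusted p = 0.029).

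The prl RNAs, polyadenylated RNAs without long reading frames, number 19 here. Of 15 tested on the sense strand, 9 were higher and none was lower in limma's fit, where 10 were higher and 2 lower at an unadjusted p under 0.05. Voom called 8 higher and 0 lower, quantile normalization 5 higher and 3 lower. Their median log2 change was 0.94, against 0.71 over all tested RNAs of the set and 0.16 over all rows. Of the 9 called higher, prl2, prl36 and prl66 passed the filter through both spt6-1 libraries and not both WT libraries, which fixes their direction. The 9 of 15, or 60%, compare with 40.6% higher in that set and 21.8% over all rows. The most abundant, prl31, had 90.9 and 71.4 RPKM in spt6-1, against 45.0 and 39.4 RPKM in WT, but its adjusted p lay between 0.053 and 0.12 without WT replicate 1, WT replicate 2 or spt6-1 replicate 1. prl66 had 8.99 and 6.23 RPKM in spt6-1, against 1.15 and 0.665 RPKM in WT. prl2, prl26, prl36 and prl51 kept their sign and did not pass under quantile normalization, with adjusted p between 0.053 and 0.15. The prl51 call was also lost on leaving out WT replicate 1 (adjusted p = 0.12), on leaving out spt6-1 replicate 2 (0.15), and with no filter, no trend, voom or rescaling to recovered reads (0.061 to 0.066). prl8 and prl9 overlap and count once as a locus. prl6 had 2.42 and 1.31 RPKM in spt6-1 and 6.74 and 3.19 RPKM in WT, without a call, and prl12 had no sense read in any library.

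Sense rises were found on each chromosome and in each arrangement. On the sense strand 47 of 119 tested were higher on chromosome I, 36 of 87 on chromosome II and 20 of 48 on chromosome III. Those shares were 39.5%, 41.4% and 41.7%, near the 40.6% of all the tested RNAs. Over all rows 21.8% were higher. RNAs with an opposite-strand upstream gene numbered 85 higher of 212 tested (40.1%), and those with a same-strand upstream gene 18 of 42 (42.9%). Of those 1 to 200 bp from an opposite upstream gene, or touching it, 34 of 93 were higher, and of those over 1000 bp away 18 of 43. By length, the shortest RNAs, of up to 390 bases, had 21 of 42 higher and the longest, of 976 bases or more, 29 of 82. Restricting the set to RNAs at least 200 bp from any coding row left 52 higher among 117 tested.

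Most of the coding genes beside the RNAs had no call on their sense strand. Of 249 genes tested that lie upstream on the opposite strand, 37 were higher and 14 lower on their sense strand, with a median log2 change of 0.22. Of 231 that lie downstream on the same strand, 29 were higher and 16 lower, with a median of 0.10. Quantile normalization gave 21 higher and 19 lower upstream and 14 higher and 30 lower downstream. Rescaling to recovered reads gave 22 higher and 15 lower upstream and 18 higher and 22 lower downstream. With voom the counts were 26 higher and 20 lower upstream and 21 higher and 26 lower downstream. Among all 5060 protein-coding rows tested, 610 were higher and 415 lower, with a median of 0.03. A divergent neighbour's sense change was weakly related to that of its RNA, with a Spearman correlation of 0.10 over 212 RNAs, many of which share a neighbour.

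Genes for the machinery that removes or ends non-coding RNA had few calls on the sense strand, as did coding rows at large, with 12.1% called higher and 8.20% called lower. Of 20 matched nuclear RNA surveillance genes, dis3, the catalytic subunit of the exosome, and mtr4, the helicase that feeds it, fell on the sense strand. dis3 averaged 32.6 RPKM in spt6-1 and 61.1 RPKM in WT, and mtr4 averaged 20.9 RPKM in spt6-1 and 35.3 RPKM in WT (limma adjusted p = 0.033 each). The mtr4 call was lost on leaving out any 1 of the 4 libraries (adjusted p between 0.058 and 0.15), and the dis3 call on leaving out any library but WT replicate 2 (0.058 to 0.14). ctr1 was called higher, with means of 18.5 RPKM in spt6-1 and 10.5 RPKM in WT, and the other 17 had no call on the sense strand. Of 13 matched termination genes, rhn1 fell, with means of 10.1 RPKM in spt6-1 and 19.0 RPKM in WT, a call lost on leaving out WT replicate 2 (adjusted p = 0.057) and on leaving out spt6-1 replicate 1 (0.062). din1, for a partner of the 5′ to 3′ exonuclease Dhp1, was called higher, with means of 78.8 RPKM in spt6-1 and 48.2 RPKM in WT. The din1 call was lost on leaving out any 1 library (adjusted p between 0.094 and 0.20), and the ctr1 call on leaving out any library but spt6-1 replicate 2 (0.066 to 0.18). Both were also lost under quantile normalization, with adjusted p of 0.10 for ctr1 and 0.093 for din1, under voom and on rescaling to recovered reads, din1 on centring on the coding median (0.055), and ctr1 with no filter (0.055) or no trend (0.064). On the antisense strand 18 of the 20 surveillance genes and 11 of the 13 termination genes were called higher, against 3820 of 4728 protein-coding rows. The part of these genes in the changes of the non-coding RNAs was not tested.

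**Figure D5:**
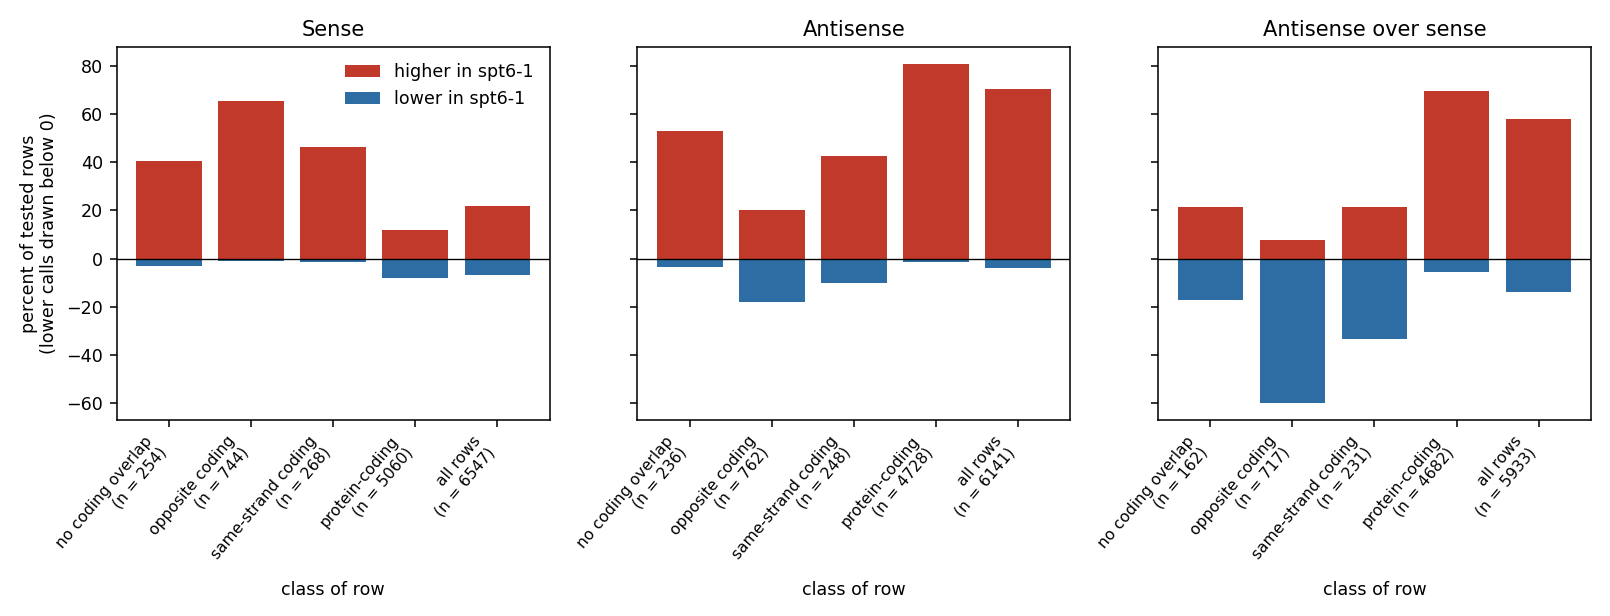
Percent of tested rows called higher (above 0) or lower (drawn below 0) in spt6-1, for the non-coding RNAs overlapping no coding row, ncRNAs opposite a coding row, ncRNAs overlapping one on the same strand, protein-coding rows and all rows, with the number tested under each bar. The first class has 103 of 254 higher on the sense strand and 125 of 236 on the antisense strand; quantile normalization gave it 40 and 23.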

How the data were processed

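Strand-specific RNA-seq of polyadenylated RNA was deposited for 4 libraries, 2 of spt6-1 and 2 of WT. Per the submitters' processing notes, TopHat and the build ASM294v2 were used. The authors deposited RPKM, reads per kilobase scaled by a library denominator, with a sense and an antisense value per row. How reads were counted is not stated there. The deposited junction list gives positions and strands (other values), used to count junctions inside rows.

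Whole reads were recovered from the RPKM, 100% within 0.01 read, with sense values divided by exon length and antisense values by the span of the row. The main test was limma 3.58.1 in R 4.3.3 (lmFit, eBayes with a trend, no trend for the ratio) on log2(RPKM + 0.5), two-sided, over every row at 1 sense RPKM or 0.5 antisense RPKM in at least 2 libraries, with Benjamini-Hochberg adjustment over all rows tested and a threshold of 0.05. Fold changes include the pseudocount, which understates low rows. Alternatives were other pseudocounts, filters and scalings, limma's voom on recovered reads with trimmed mean of M values (TMM) scaling, each library left out in turn and a replicate block. Simulated data with known changes were used to check the fit. Near-identical copies were found with blastn 2.17.0 at 95% identity.

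The labels share replicate numbers between strains and do not say whether libraries of the same number were made together, so the main test paired none. The RNAs and gene lists were chosen with earlier results of these data known. RNAs were named when among the 10 largest sense rises, 6 sense falls, 6 antisense rises, 4 antisense falls, 4 highest WT levels, 3 largest ratio changes each way, or when they had a symbol; SPNCRNA.113 and SPNCRNA.780 were added after their values were seen, to name all 8 falls. Counting error limits low values: 3 reads in an RNA of median length are worth 0.139 to 0.289 RPKM.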

Additional observations from a re-analysis of the deposited data

How the results depend on the processing

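Of the named RNAs with a call on the sense strand, none changed sign under the scalings, pseudocounts and filters in which it was tested. Counts of calls moved as follows, as higher and lower. Quantile normalization gave 40 and 46 of 254 sense, 23 and 136 of 236 antisense and 18 and 71 of 162 for the ratio. Over all rows it gave 801 and 998 of 6547 sense, 1566 and 1792 of 6141 antisense, and 1610 and 1443 of 5933 for the ratio. It turned the median log2 change of the RNAs to -0.12 sense and -0.86 antisense. Voom turned their antisense median to -0.64, with 29 and 90 calls, against 2614 and 1957 over all rows. Rescaling to recovered reads gave 79 and 12 sense calls and 14 antisense lower calls, against 1079 and 576 sense and 332 antisense lower over all rows. Voom gave 79 and 10 sense calls, and with sense library sizes 13 antisense lower calls. Over all rows those were 1159 and 814 sense and 396 antisense lower. A filter of 2 RPKM gave 80 of 131 antisense higher and 18 of 76 ratio lower calls, against 2971 of 4494 and 701 of 4247 over all rows. No filter gave 63 and 55 of 342 for the ratio, against 3528 and 911 of 6811 over all rows. The cause of these shifts was not tested, except that filters change the number tested.

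Leaving out each library in turn gave 55 to 77 sense higher and 6 to 8 lower, 70 to 106 antisense higher and 4 to 11 lower, and 18 to 29 ratio higher and 21 to 32 lower. With 1 library left in a group, that library is assumed to vary like the others.

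With fewer RNAs the counts fell: at least 200 bp from coding rows there were 52 sense higher, 70 and 5 antisense, and 20 and 15 for the ratio. Overlapping no other row there were 42 and 0 sense among 104 tested, 50 and 3 antisense, and 9 and 10 for the ratio. Over all rows tested, 21.8% were higher and 6.67% lower sense, 70.3% and 3.89% antisense, and 58.0% and 14.0% for the ratio. Calls among coding neighbours fell to 16 higher upstream on the opposite strand, without WT replicate 1 or spt6-1 replicate 1, and to 12 downstream on the same strand, without spt6-1 replicate 1. With 1 row per overlapping group, 5 sense lower calls were left, and RNAs past the filter in both WT libraries gave 75 antisense higher calls.

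A replicate block gave 121 and 16 sense calls of 254, 136 and 13 antisense of 236 and 41 and 35 of 162 for the ratio. Over all rows it gave 1628 and 582 of 6547 sense, 4484 and 311 of 6141 antisense, and 3558 and 883 of 5933 for the ratio. Libraries of the same number deviated together with a correlation of 0.32 sense and 0.34 antisense over rows. With 2 pairs this neither shows nor excludes a pairing or a shared batch. In both strains replicate 1 was deeper and richer in rRNA. Sense reads were 17.8% rRNA in spt6-1 and 12.8% in WT for replicate 1, against 3.73% and 6.43% for replicate 2.

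Named antisense or ratio values that changed sign were, under quantile normalization, prl50 (-1.07), mrp1 (-0.059), SPNCRNA.863 (-0.28), prl31 (-0.37, ratio -1.15), prl1 (-0.014), prl12 (-0.59), omt3 (-0.91), SPNCRNA.90 (-0.42), SPNCRNA.277 (-0.78), SPNCRNA.1380 and SPNCRNA.322 (both -1.06), SPNCRNA.358 (-1.39), SPNCRNA.389 (-0.17), meu3 (-1.11), SPNCRNA.1293 (-1.23), SPNCRNA.523 (-1.38) and meu19 (-1.13). Under voom they were SPNCRNA.863 (-0.50), prl1 (-0.33), omt3 (-0.33), SPNCRNA.90 (-0.067), SPNCRNA.277 (-1.27), prl66 (-1.37), and SPNCRNA.1380 and SPNCRNA.322 (both -0.46). Depth limits the shortest RNAs, and near-identical copies the 11 repeated ones.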

Other observations

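The deposited list of splice junctions, which carries no value per library, places junctions on the RNA's own strand inside 62 of the 382 RNAs and on the other strand inside 53, although 1 of them, SPNCRNA.159, is annotated with introns. SPNCRNA.1581, at 29.5 RPKM in spt6-1 and 19.2 RPKM in WT on average, holds 7 junctions on its own strand. SPNCRNA.1299 holds 1. The libraries behind each junction are not given in the list.

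SPNCRNA.390, 1586 bp beyond the mating-type gene mat3-Mc, was not tested on its sense strand, and its antisense strand had 10.2 and 10.6 RPKM in spt6-1, against 0.772 and 0.825 RPKM in WT. It has a near-identical copy over 97.6% of its length. The antisense strands of genes beside the RNAs were mostly higher, for 178 of 214 tested divergent upstream genes and 183 of 205 same-strand downstream genes, against 3820 of 4728 protein-coding rows. The antisense change of a divergent gene and the sense change of its RNA had a Spearman correlation of -0.05 over 181 RNAs, although the antisense strand of such a gene is the strand of the RNA. For an upstream gene on the RNA's own strand, antisense changes of the gene and sense changes of the RNA had a Spearman correlation of 0.37 over 35 RNAs, a description of loci that share 4 libraries.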
